A study of Homo sapiens with 6 samples.

Results

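The bone morphogenetic protein ligand gene BMP4 and 9 genes grouped with it were compared between BRCA2 knockout and wild-type HCT116 cells, a human colon carcinoma line. Apart from UNC5B, a netrin receptor gene, the 9 act on, or respond to, signalling by the family of BMP4. The 10 genes are BMP4, BAMBI, SMAD7, SMAD6, NOG, ID1, ID2, ID3, SMAD9 and UNC5B, out of 13139 genes that a probe set of the array names alone. They were picked because the ligand and its feedback inhibitors were together higher in the knockout. Their values in that comparison therefore describe how they were chosen. Counts of them past a threshold are given as a description only, and nothing is read from them. Each of the 10 was measured by 1 probe set.

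The knockout cells (BRCA2-/-) had both alleles of BRCA2, a mediator of homologous recombination, targeted in turn by homologous recombination, and the wild-type cells were the line as obtained from a cell bank. Both grew in the same medium with serum, with no further treatment named, and each genotype gave 3 whole-transcript arrays that the labels call technical replicates. The extraction text mentions 3 samples per genotype, but whether the arrays came from separate cultures is not stated. The p-values below therefore measure only the spread between arrays, which may be technical. How many knockout clones were used is not stated, and loss of BRCA2 cannot be told apart from any other difference between the lines. BRCA2 itself was not analysed here, since 0 probe sets carried its symbol alone, so the genotype labels went unchecked against the targeted gene.

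Bone morphogenetic proteins are secreted ligands of the TGF-beta family. They bind paired type I and type II receptors, which phosphorylate SMAD1, SMAD5 and SMAD9, and these enter the nucleus with SMAD4 and switch on target genes, among them the ID genes and the genes of several inhibitors of the same pathway. In the intestine the pathway is known for limiting stem cell renewal and for promoting differentiation towards the epithelial surface.

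Arrays differed in their distributions, with medians of 7.41, 7.80 and 7.41 on knockout arrays 1, 2 and 3 and 7.71, 7.36 and 7.48 on wild-type arrays 1, 2 and 3 (all values are log2). Knockout array 2 and wild-type array 1, the 2 of highest median, correlated at 0.924 across probe sets, above the 0.876 and 0.893 of knockout array 2 with the other knockout arrays. Results are therefore also given without these 2 arrays. The median difference over all probe sets was 0.018, and no scaling moved it by as much as 0.1. Of the colon epithelial markers, EPCAM lay between 9.75 and 10.31 on knockout arrays and between 9.47 and 10.10 on wild-type arrays, and KRT18 between 12.24 and 12.33 on knockout arrays and between 11.95 and 12.05 on wild-type arrays. CDH1, the E-cadherin gene, was at 11.34, 11.33 and 11.64 on knockout arrays and at 10.28, 10.34 and 10.25 on wild-type arrays (difference 1.15 ± 0.24, limma adjusted p = 0.127). Of the 12 markers 11 were higher and 1 lower in knockout (median 0.34), while 54.7% of all 13139 genes were higher. For 5 of the 12 every knockout array was above every wild-type array, as for 1854 of all 13139 genes. In limma 0 of the 12 passed the threshold, and 1, CDH1, was higher at an unadjusted p under 0.05, as were 8.29% of all genes. The part of these marker differences in the values of the 10 genes was not tested. KRT20 and CEACAM5, markers of mature colon epithelium, were at most 6.74 on any array. Others of the list reached higher values, LGALS4 7.70 and VIL1 6.91 on knockout array 3 and CDX2 8.41 on knockout array 1. Heights of different probe sets are not comparable, so no degree of maturity is read from these values. Markers of other cell types overlapped between the genotypes as list means. The mean over 6 fibroblast markers was 5.23 to 6.19 on knockout arrays and 5.29 to 6.09 on wild-type arrays, and that over 6 endothelial markers 5.90 to 7.09 on knockout and 5.68 to 6.47 on wild-type arrays. That over 4 leukocyte markers was 6.65 to 7.16 on knockout and 6.27 to 6.91 on wild-type arrays. No value of these markers was at or below 0 on the log2 scale, the lowest being 2.01 (FAP on knockout array 2), and 4 of the 16 had a value under 4 on some array.

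The regulatory sequence just upstream of 4 of the genes is shown because it carries, or lacks, the words to which SMAD proteins are known to bind. The 250 bases before the start of transcription were taken from RefSeq (GRCh38.p14), where 8 of the 10 genes have an entry, in 12 windows. Capitals mark GTCTAGAC, the palindromic SMAD-binding element, and GGCGCC, the core of GC-rich elements bound by SMAD1 and SMAD5. Each word reads the same on both strands, and the 2 do not overlap each other here.
BMP4 (chr14:53955051-53955300, minus strand): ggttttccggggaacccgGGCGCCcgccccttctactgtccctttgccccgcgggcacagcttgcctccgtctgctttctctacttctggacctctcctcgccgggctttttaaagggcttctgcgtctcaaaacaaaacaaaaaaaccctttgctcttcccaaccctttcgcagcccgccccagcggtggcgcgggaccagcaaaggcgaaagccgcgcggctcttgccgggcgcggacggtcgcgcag
BAMBI (chr10:28677271-28677520, plus strand): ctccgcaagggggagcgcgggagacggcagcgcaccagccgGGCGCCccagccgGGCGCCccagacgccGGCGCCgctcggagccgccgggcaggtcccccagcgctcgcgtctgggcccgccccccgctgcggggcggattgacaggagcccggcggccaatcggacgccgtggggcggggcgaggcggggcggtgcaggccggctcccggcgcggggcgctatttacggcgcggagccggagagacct
SMAD6 (chr15:66701986-66702235, plus strand): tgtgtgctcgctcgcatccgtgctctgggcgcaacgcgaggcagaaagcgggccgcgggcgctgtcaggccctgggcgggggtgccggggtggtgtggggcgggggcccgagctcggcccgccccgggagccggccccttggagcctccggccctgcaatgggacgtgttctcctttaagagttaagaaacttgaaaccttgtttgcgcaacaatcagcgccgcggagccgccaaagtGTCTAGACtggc
ID1 (chr20:31605039-31605288, plus strand): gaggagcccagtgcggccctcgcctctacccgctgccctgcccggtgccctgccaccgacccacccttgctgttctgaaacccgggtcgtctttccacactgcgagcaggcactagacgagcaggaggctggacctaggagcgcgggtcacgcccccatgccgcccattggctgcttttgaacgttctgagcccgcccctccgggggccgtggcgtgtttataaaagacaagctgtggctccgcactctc
SMAD6 has the element GTCTAGAC, which begins 12 bases before the start, a word found in 0.182% of all 35097 such windows. BAMBI has GGCGCC 3 times, beginning 209, 196 and 181 bases before the start, and the first of 3 BMP4 windows has it once, 232 bases before. That shorter word is in 16.4% of all windows. Neither word is in the windows of ID1, ID2, ID3, SMAD7 and SMAD9 or in the other 2 of BMP4. Sequence farther upstream than 250 bases, or after the start, was not searched. Other words, and parts of these 2, were not searched either. The ID1 window, for example, holds GTCT and AGAC, the parts of GTCTAGAC, apart from each other. A window without GTCTAGAC or GGCGCC therefore does not show that the window or the gene lacks SMAD-binding sequence. A match is a run of letters, not a bound site, and binding was not measured.

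BMP4, the ligand, was at 11.01, 11.43 and 11.45 on the knockout arrays, against 8.62, 8.81 and 8.78 on the wild-type arrays. All knockout arrays lay above all wild-type arrays, the nearest 2 values being 2.19 apart. The means were 11.30 ± 0.25 in knockout and 8.74 ± 0.11 in wild type (SD, n = 3 each), a difference of 2.56 ± 0.26 (SE) or 5.90-fold. RNA came from whole cultures, so that more cells with a transcript and more transcript per cell cannot be told apart, for this and every gene below.

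NOG encodes noggin, a secreted protein that binds bone morphogenetic proteins and keeps them from their receptors. It was at 4.62, 6.08 and 5.83 in knockout, against 4.15, 4.27 and 3.79 in wild type. The groups did not overlap, but knockout array 1 was 0.34 above the highest wild-type array, and the wild-type values lay near the bottom of the scale. Only 731 to 1101 of 19458 values on an array were under 4. The difference was 1.44 ± 0.42, and 1.15 to 1.89 with 1 array left out.

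BAMBI, a membrane pseudoreceptor that resembles type I receptors without a kinase domain and blocks signalling, had the widest separation of the 10. It was at 11.12, 11.23 and 11.47 in knockout, against 7.06, 6.61 and 6.79 in wild type. The lowest knockout array was 4.07 above the highest wild-type array. Its difference of 4.46 ± 0.26 amounts to 21.9-fold, and it stayed between 4.35 and 4.58 with any 1 array left out.

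SMAD6 and SMAD7 encode the inhibitory SMADs, which occupy type I receptors and recruit ubiquitin ligases to them. SMAD6 mainly restrains the bone morphogenetic protein branch and SMAD7 both branches. SMAD7 was at 7.20, 7.80 and 6.54 in knockout, against 4.33, 4.39 and 3.97 in wild type. SMAD6 was at 5.77, 7.03 and 6.01 in knockout, against 4.12, 3.55 and 3.68 in wild type. For both, every knockout array was above every wild-type array, by at least 2.15 for SMAD7 and 1.65 for SMAD6, and knockout array 2 was the highest. The differences were 2.95 ± 0.37 for SMAD7 (7.72-fold) and 2.49 ± 0.39 for SMAD6 (5.61-fold). Wild-type values under 4 on 1 array for SMAD7 and 2 for SMAD6 leave the size of the fold uncertain. A floor of 4 on all values gave 2.94 for SMAD7 and 2.23 for SMAD6. Without knockout array 2 and wild-type array 1 they were 2.69 for SMAD7 and 2.28 for SMAD6.

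SMAD9, a receptor-regulated SMAD of the bone morphogenetic protein branch, was at 6.07, 7.26 and 7.15 in knockout, against 6.71, 7.22 and 6.26 in wild type. The groups overlapped. The difference was 0.09 ± 0.42 and changed sign with the array left out (-0.14 to 0.47).

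The ID genes encode inhibitors of basic helix-loop-helix transcription factors and are textbook targets of the pathway, yet the 3 differed in how far apart the genotypes lay. ID1 was at 11.20, 11.30 and 11.75 in knockout, against 11.06, 11.52 and 11.51 in wild type. These values overlapped, with a difference of 0.05 ± 0.28 that ran from -0.11 to 0.16 with 1 array left out. ID3 was at 10.86, 11.26 and 11.00 in knockout, against 10.01, 10.04 and 10.40 in wild type. All ID3 values in knockout were above those in wild type, by at least 0.46, with a difference of 0.89 ± 0.26 or 1.86-fold. ID2 was at 10.57, 10.61 and 10.25 in knockout, against 9.78, 9.46 and 10.19 in wild type. Here the nearest arrays were 0.07 apart, and the difference was 0.67 ± 0.29.

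UNC5B encodes a dependence receptor for netrin-1, best known from axon guidance and blood vessels. It was at 9.75, 9.67 and 10.27 in knockout, against 8.89, 9.07 and 9.05 in wild type. The groups were 0.60 apart, and the difference was 0.89 ± 0.27 or 1.86-fold.

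**Figure D1:**
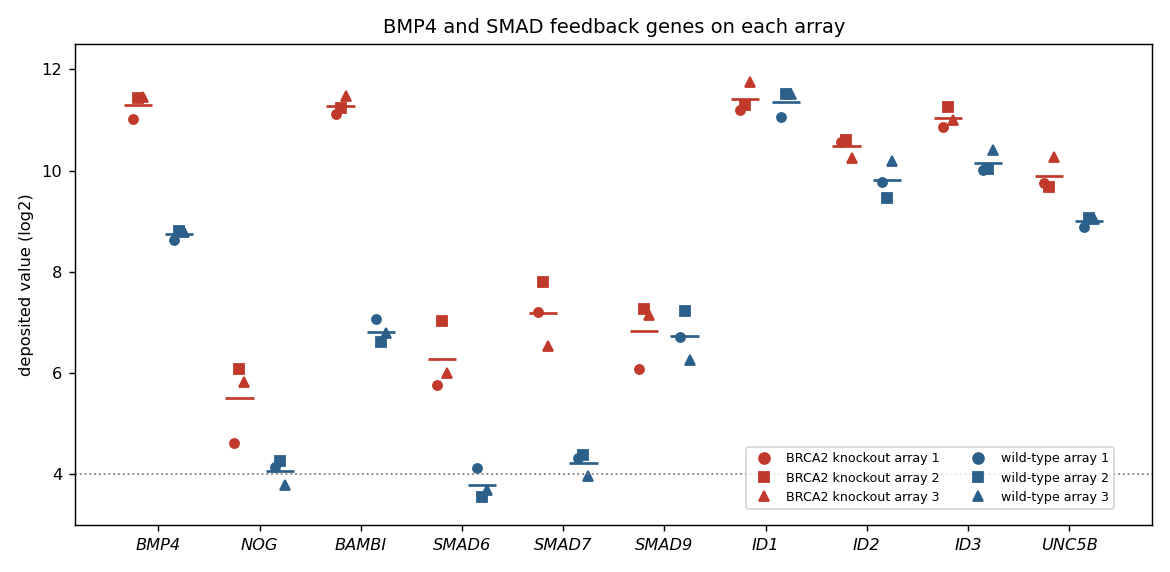
Deposited log2 values (vertical axis) of the 10 genes, with the knockout arrays in red left of the wild-type arrays in blue, 1 symbol shape per array number, short lines for means and a dotted line at 4. BMP4, BAMBI, SMAD6 and SMAD7 show wide gaps between the genotypes, while SMAD9 and ID1 overlap. Heights of different genes are not comparable, since each has its own probe set.

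By role, the widest differences were thus those of the ligand and of the receptor-level and intracellular inhibitors (2.49 to 4.46), followed by the secreted antagonist (1.44), UNC5B, ID2 and ID3 (0.67 to 0.89) and then SMAD9 and ID1 (0.09 and 0.05). All 10 differences were above 0, as were 51.3% of those of all probe sets and 54.7% of those of all 13139 genes. For 8 of the 10 every knockout array was above every wild-type array. The same held for 12.0% of all probe sets and for 1854 of all 13139 genes. In limma, with p-values adjusted over all probe sets by Benjamini-Hochberg, BMP4, BAMBI and SMAD7 passed 0.05 as higher in knockout, as did 0.416% of all probe sets. These shares and calls describe genes chosen on this same comparison and are no test of them. The calls of BMP4 and SMAD7 also depended on single arrays. With 1 array left out SMAD7 was never past the threshold and BMP4 was past it only without knockout array 1 or knockout array 2. BAMBI stayed past it whichever array was left out. Without both arrays of highest median 0 of the 10 were past it.

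**Figure D2:**
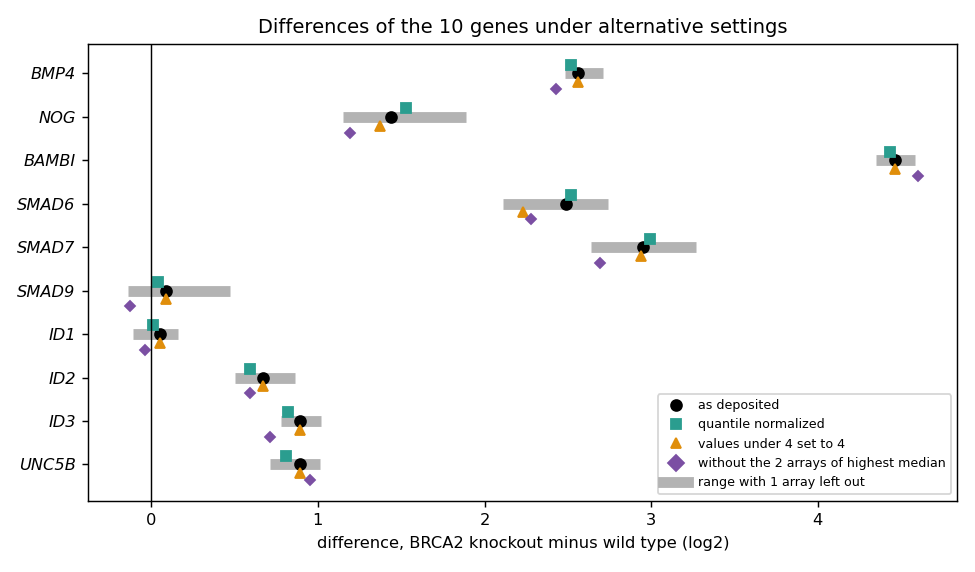
Differences, knockout minus wild type, in log2 units (horizontal axis) for the 10 genes, as deposited and under 3 alternative settings, with grey bars for the range with 1 array left out. The differences of BMP4, BAMBI, SMAD6, SMAD7, NOG, ID2, ID3 and UNC5B lay above 0 in all settings drawn, and those of SMAD9 and ID1 straddled 0.

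The rest of the pathway was examined with 10 lists drawn up by role, 118 genes in all, of which 89 had a probe set of their own. These genes did not enter the choice of the 10. The lists were drawn up with earlier results of these data known, so their counts are a description only. In limma 0 of the 89 passed an adjusted p of 0.05 over all probe sets, against 0.57% of all probe sets. At an unadjusted p under 0.05, 19 were higher and 2 lower, or 21.3% and 2.25% of them. Of all 13139 genes 8.29% and 5.24% were, and of all probe sets 6.92% and 5.28%. The test without moderation also called 0. The median difference of the 89 was 0.30, against 0.07 over all 13139 genes, and 63 of the 89 (70.8%) were higher, against 54.7% of all genes. Single lists are small, and no list was tested as a group.

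Ligands other than BMP4 were divided. Of 13 measured genes for bone morphogenetic proteins and growth differentiation factors, 8 were higher and 5 lower (median 0.27). BMP6 was at 8.29, 8.73 and 8.52 in knockout, against 7.35, 7.62 and 8.21 in wild type (difference 0.79 ± 0.31, limma adjusted p = 0.378). BMP7 differed by 0.71 (adjusted p = 0.446) with overlapping arrays, and GDF11 by 0.63 (adjusted p = 0.489) without overlap. BMP2 and BMPR1A were not analysed here. Among 6 genes for TGF-beta and activin subunits, the 2 TGF-beta genes of largest difference went opposite ways. TGFB2 was at 7.90, 8.66 and 8.15 in knockout, against 6.53, 6.32 and 5.70 in wild type, a difference of 2.05 ± 0.34 (adjusted p = 0.0660). It passed the threshold in 6 of 16 alternatives, with adjusted p from 0.00607 to 0.414 over all 16. TGFB1 was at 7.65, 8.17 and 7.44 in knockout, against 8.44, 8.33 and 8.72 in wild type, a difference of -0.74 ± 0.29 (adjusted p = 0.374). Neither gene had overlapping values between the genotypes. INHBE, an activin subunit gene, differed by 0.53 (adjusted p = 0.563).

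Differences of receptor genes ran from -0.51 to 0.87 and those of SMAD transducers from -0.13 to 0.85, and none passed the test. Of 14 measured receptor and co-receptor genes 11 were higher and 3 lower, with a median of 0.25. The type II receptor gene BMPR2 was at 7.91, 9.21 and 7.96 in knockout, against 8.63, 8.13 and 8.14 in wild type (difference 0.06, adjusted p = 0.962). The type I receptor gene ACVR1 differed by -0.29 (adjusted p = 0.801) and TGFBR2, whose functional protein HCT116 cells are known to lack, by 0.04 (adjusted p = 0.977). Each of these 3 was highest within its genotype on knockout array 2 and on wild-type array 1, the arrays of highest median. TGFBR3, the co-receptor betaglycan, was at 8.32, 9.29 and 8.49 in knockout, against 7.95, 8.01 and 7.70 in wild type (difference 0.82 ± 0.33, adjusted p = 0.383), and ACVRL1, another type I receptor gene, differed by 0.69 (adjusted p = 0.353). SMAD1, SMAD5 and the common partner SMAD4 differed by -0.13, 0.11 and 0.05 (adjusted p = 0.922, 0.938 and 0.971). SMAD2, a transducer of the TGF-beta and activin branch, was at 11.37, 11.55 and 11.60 in knockout, against 10.92, 10.47 and 10.59 in wild type. Its difference of 0.85 ± 0.26 missed the threshold (adjusted p = 0.251). SMAD2 had 2 probe sets, of which the one of higher mean is given here, and the other also missed the threshold.

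Inhibitors that were not among the 10 were measured in 2 lists, and none passed the test. Of 11 intracellular ones 10 were higher and 1 lower (median 0.66). For 6 every knockout array was above every wild-type array, as for 12.0% of all probe sets and 1854 of all 13139 genes. TGIF2 and TGIF1, SMAD corepressor genes, differed by 0.92 ± 0.30 and 0.73 ± 0.24 (adjusted p = 0.288 for both). SKI and SKIL, whose proteins hold SMAD complexes inactive, differed by 0.76 and 0.82 (adjusted p = 0.299 and 0.354). The ubiquitin ligase genes SMURF1 and SMURF2, partners of the inhibitory SMADs, differed by 0.04 and -0.36 (adjusted p = 0.979 and 0.717), and PMEPA1 by 0.66 (adjusted p = 0.528). Of 10 secreted antagonists 7 were higher and 3 lower (median 0.41). FSTL3, a follistatin-like inhibitor of activin, was at 8.88, 8.84 and 9.45 in knockout, against 7.80, 8.26 and 8.12 in wild type (difference 1.00 ± 0.29, adjusted p = 0.238). The chordin gene CHRD differed by 0.31 (adjusted p = 0.778) and the follistatin gene FST by -0.49 (adjusted p = 0.779). GREM1, the gremlin gene, was poorly determined, at 2.18 ± 2.51 in knockout and -0.90 ± 7.59 in wild type (SD, n = 3 each). The difference was 3.08 (adjusted p = 0.758), and the wild-type mean rested on -9.57 on wild-type array 2.

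Transcription factor genes known to respond to bone morphogenetic proteins were higher in 6 of 9 cases and lower in 3 (median 0.61). Their differences ran from -0.68 to 1.30. Without overlap 4 were higher and 1 lower, the one at -0.68, as were 1854 and 930 of all 13139 genes. RUNX2, a transcription factor gene of bone formation, was at 7.17, 7.67 and 6.55 in knockout, against 5.87, 5.61 and 6.01 in wild type (difference 1.30 ± 0.34, adjusted p = 0.201). TBX3 differed by 1.20 ± 0.40 (adjusted p = 0.292) and GATA2 by 0.74 ± 0.30 (adjusted p = 0.386), each without overlap. Of 9 targets of TGF-beta 3 were higher and 6 lower (median -0.16). COL1A1, a collagen gene, and CCN2, a matricellular protein gene, differed by 1.10 and 1.11 (adjusted p = 0.159 and 0.320). CDKN2B, which encodes a cyclin-dependent kinase inhibitor, was at 7.24, 7.68 and 7.00 in knockout, against 9.11, 8.60 and 8.29 in wild type (difference -1.36 ± 0.33, adjusted p = 0.168). Of 4 genes for helix-loop-helix proteins that pair with ID proteins or act in gut lineages, TCF12 differed by 0.41 (adjusted p = 0.557) and TCF3 by -0.39 (adjusted p = 0.595).

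In the list of UNC5 family and netrin genes, the 2 largest differences were in netrin genes. NTNG2, which encodes the membrane-anchored netrin-G2, was at 6.86, 6.85 and 6.45 in knockout, against 4.88, 4.94 and 5.21 in wild type (difference 1.71 ± 0.26, adjusted p = 0.0509, and 0.0177 to 0.488 over its alternatives). NTN4, a netrin of basement membranes, was at 5.99, 6.83 and 6.14 in knockout, against 4.30, 3.95 and 2.61 in wild type. Its difference was 2.70 ± 0.49 (adjusted p = 0.0861, and 0.0168 to 0.326 over its alternatives), and 2.22 with values under 4 set to 4. NTN1, the netrin-1 gene, differed by 0.12 (adjusted p = 0.899) and UNC5C by 0.13 (adjusted p = 0.912). All 8 genes of this list had differences above 0 (median 0.52).

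**Figure D3:**
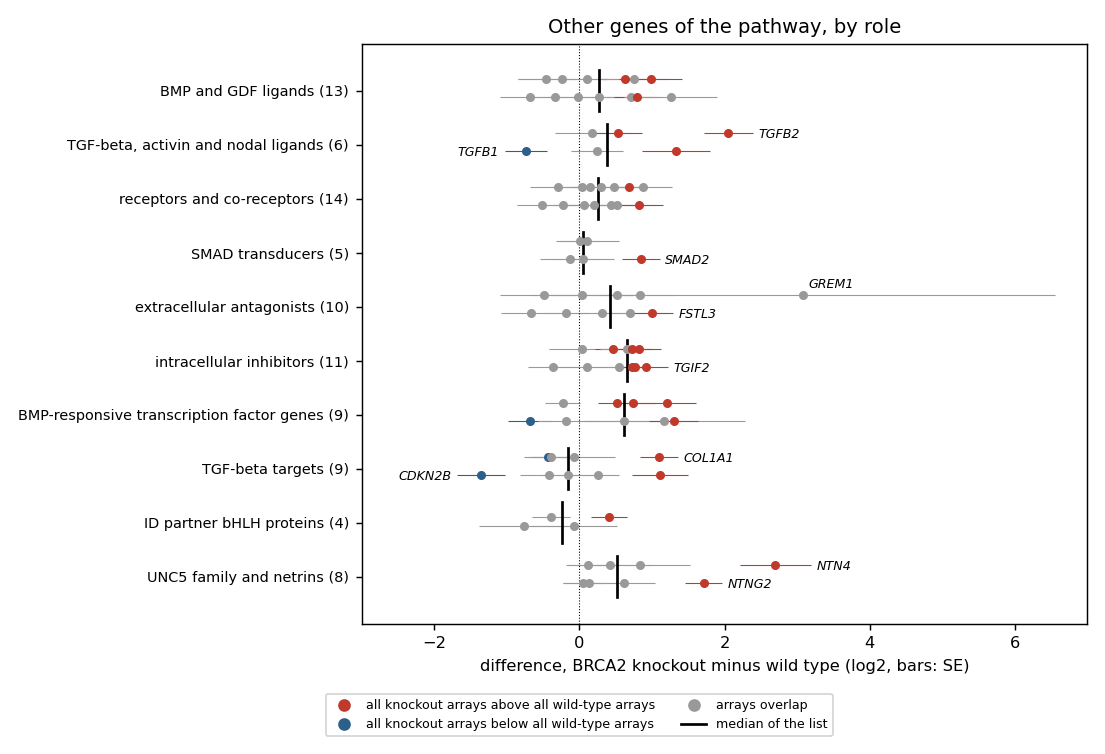
Differences, knockout minus wild type, in log2 units with SE (horizontal axis) for 89 pathway genes outside the 10, grouped by role with the number measured in brackets. TGFB2, NTN4 and NTNG2 lie farthest to the right apart from GREM1, whose error spans 0, and CDKN2B farthest to the left.

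The 10 genes lie on 9 chromosomes (BAMBI and UNC5B share chromosome 10), and the nearest measured gene on either side of each was examined to see whether neighbours shared the difference. Of 20 neighbours 12 were higher and 8 lower (median 0.17), 0 passed the limma threshold, and differences ran from -0.74 to 1.03. Without overlap between the genotypes 4 were higher and 3 lower, as were 1854 and 930 of all 13139 genes. The 4 were CDKN3 beside BMP4, MAP3K8 beside BAMBI, CTIF beside SMAD7 (difference 0.60) and SLC29A3 beside UNC5B (0.66). The highest, 1.03 ± 0.26, was in the kinase gene MAP3K8 beside BAMBI (adjusted p = 0.192), where the other neighbour WAC differed by 0.45. SMAD6 has the TGF-beta transducer gene SMAD3 beside it on chromosome 15, and SMAD3 was at 10.18, 10.31 and 10.83 in knockout, against 10.31, 10.53 and 10.45 in wild type (difference 0.01 ± 0.28, adjusted p = 0.992). BMP4 lies between DDHD1 and CDKN3, which differed by 0.15 and 0.74 (adjusted p = 0.881 and 0.378).

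The 5 genes outside the 10 whose values over the 6 arrays most resembled those of BMP4 were SUSD2, EHF, SRPX2, TNNC1 and SYBU. Likeness was the root mean square distance between values centred on each gene's own mean, and it ran from 0.188 (SUSD2) to 0.231 (SYBU). EHF, an epithelial ETS transcription factor gene, was at 11.69, 11.68 and 11.99 in knockout, against 9.38, 9.46 and 9.61 in wild type. SUSD2, which encodes a sushi domain membrane protein, was at 10.53, 10.80 and 10.58 in knockout, against 8.32, 8.44 and 8.22 in wild type. The differences of the 5 lay between 2.20 (SYBU) and 2.65 (TNNC1), on either side of the 2.56 of BMP4, which their choice fixes.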

How the data were processed

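Total RNA of HCT116 cells was depleted of ribosomal RNA and labelled as sense-strand target, per the labels' protocols. Each deposited value is a log2 summary of 1 probe set, the log base being taken from the range. RMA, R 2.11.1 and hg18 come from the submitters' processing notes, and the RMA steps and filters run are not given in the sources used here. Of 19458 probe sets, 13301 had 1 symbol, updated through gene identifiers, and the probe set of highest mean stood for a gene. Values were used unfiltered.

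The genotypes were compared over all probe sets in R 4.3.3 with lmFit and eBayes of limma 3.58.1, genotype as the single factor, with Benjamini-Hochberg adjustment and a threshold of 0.05. In simulated data for this comparison on 19458 probe sets, 38% of probe sets changed by 2 (log2) were recovered and 0% of those changed by 1. The members and lists were chosen with earlier results of these data known. Beside the 10, genes were named if called, if among the 3 of largest difference of a list without overlap and with a mean of at least 6, or if of core role, and the neighbours by position. Alternatives covered scaling, low values, the variance model, the replicate block and arrays left out. The number of arrays limits the precision. How many separate cultures or clones they stand for is not stated, and this limits the comparison of the genotypes.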

Additional observations from a re-analysis of the deposited data

How the results depend on the processing

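The differences of BMP4, BAMBI, SMAD6, SMAD7, NOG, ID2, ID3 and UNC5B stayed above 0 in every alternative run, while those of ID1 and SMAD9 changed sign in 4 of 16 each. Calls moved more than differences. Instead of 111 probe sets, 3 of the 10 genes and 0 of 89 pathway genes, median centring called 175, 4 and 2, quantile normalization 174, 4 and 3, leaving out the dimmest 30% of probe sets 184, 2 and 1, values under 4 set to 4 169, 4 and 3, a variance trend 396, 5 and 4, and array weights 778, 4 and 4. The dimmest 30% included SMAD6, SMAD7 and NOG. SMAD6 was the added gene where 4 of the 10 were called, with ID3 under the variance trend. The pathway genes called were TGFB2 in all 6 of these settings, NTN4 or NTNG2 in 5, and otherwise SMAD2 and TGIF1 (variance trend) and COL1A1 (array weights). Without moderation 86, 2 and 0 were called. With 1 array left out the counts were 24 to 63, 1 to 2 and 0, and without both arrays of highest median 7, 0 and 0, with fewer arrays in each fit. The cause of the other shifts was not tested. With the replicate number as a block 3, 0 and 0 were called. Whether the numbers pair the arrays is not stated. Deviations of same-numbered arrays from their genotype means correlated at -0.238, -0.427 and 0.058. Those of knockout array 2 and wild-type array 1 correlated at 0.489, and not every array correlated best with its own number. Deviations from a mean of 3 arrays depend on each other, so these correlations cannot tell whether the numbers pair the arrays. Signals near the bottom of the scale limit SMAD6, SMAD7 and NOG in the wild type.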
